A study of Saccharomyces cerevisiae with 16 samples.

Results

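The comparison described here set 1 library of yeast 40S footprints bound by eIF3a against 1 library of unselected 40S footprints from the same strain. Both carry the number 1-1 in the labels, and they were taken as the 2 members, of 16 libraries in all, by the names of their columns. They hold counts for 5654 of the 5818 genes in the deposited gene table. Both come from Saccharomyces cerevisiae strain SY182, whose eIF3a carries a FLAG tag, so the tag is present in both groups. The subunit is encoded by TIF32, a gene that appears as RPG1 in the reference. Both cultures grew in the rich medium YPD at 30 °C, and complexes were crosslinked on ice with 0.8% formaldehyde over 1 h. After RNase I digestion the small subunits were separated from whole ribosomes, and libraries were made from RNA fragments between about 18 and 85 nt. The eIF3a-bound library passed through an immunoprecipitation with anti-FLAG antibody, and the unselected library did not, so subunits that carry eIF3a were not removed from the unselected pool. A pulldown from an untagged strain was not analysed here.

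eIF3 is the largest initiation factor. It binds the solvent face of the 40S subunit, helps to recruit initiator tRNA and mRNA, and accompanies the subunit as it scans the 5′ UTR for a start codon. Subunit a (Tif32) is a scaffold of the complex that reaches around both the mRNA entry and exit sides of the subunit. Subunits that have joined with the 60S subunit elongate as 80S ribosomes, and free 40S subunits appear again when ribosomes are split at the stop codon. The comparison asks at which of these places the 40S subunits on mRNA hold eIF3a. With 1 library a group there is no replicate check and no test. A gene is called past 2-fold by size alone, and the pair of unselected libraries 1-3 over 1-2, which shares no library with the pair of interest, shows how far 2 libraries without selection differ. That pair comes from the strains tagged on eIF2β and eIF3c, so its spread also holds differences between strains.

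The eIF3a-bound library held 3403297 footprints and the unselected library 2800652. The 10 genes with most footprints took 17.2% of the eIF3a-bound library and 16.5% of the unselected library. TDH3, a glycolytic dehydrogenase, alone took 4.34% and 3.06%.

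eIF3a-bound subunits lay more often in 5′ UTRs and less often in coding regions, at stop codons and in 3′ UTRs than unselected subunits did. 5′ UTRs held 19% of the eIF3a-bound library (exact 95% interval 18.95 to 19.04%) and 9.09% of the unselected library (9.06 to 9.12%), a ratio of 2.09. Start codons held 61.5% of the eIF3a-bound library and 57.6% of the unselected library, a ratio of 1.07. Coding regions held 17.7% of eIF3a-bound and 28.1% of unselected footprints. The largest ratio between the libraries was at stop codons, with 0.499% of eIF3a-bound footprints (0.491 to 0.506%) and 2.18% of unselected footprints (2.163 to 2.197%), a 4.37-fold lower share. 3′ UTRs held 1.32% against 3.00%, a 2.27-fold lower share. Intervals are exact binomial intervals and cover counting error only.

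**Figure D1:**
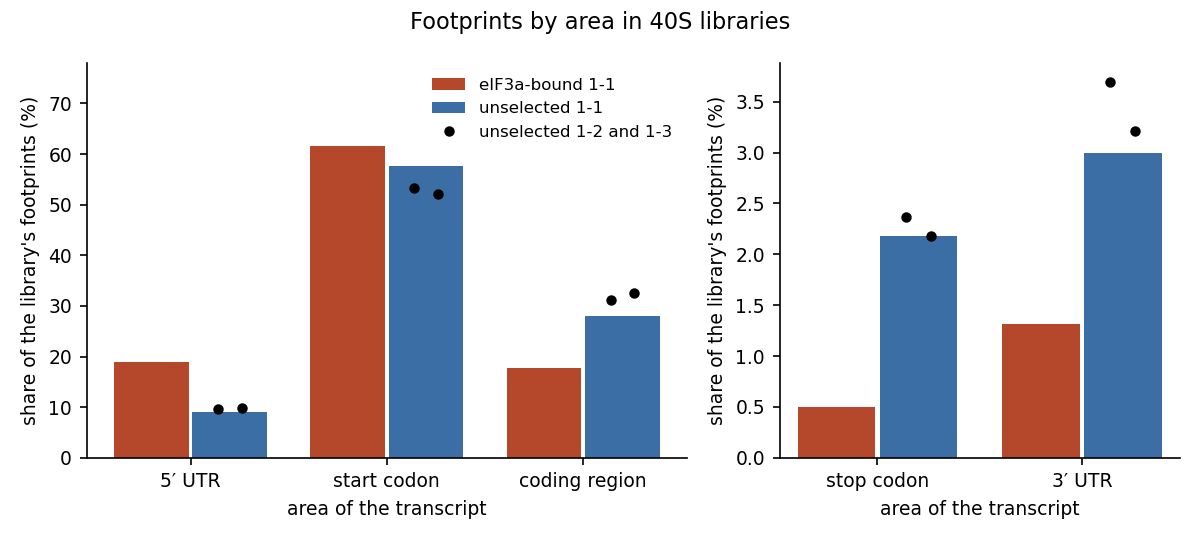
Share of each library's footprints (y axis, %) in the 5 areas of the transcript (x axis). Bars are the eIF3a-bound library and the unselected library of the same strain, and black points are the other 2 unselected 40S libraries. The eIF3a-bound bar stands at 19% in 5′ UTRs, above all unselected values, and at 0.499% at stop codons, below all of them.

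The 3 unselected libraries lay close together, from 9.09 to 9.89% in 5′ UTRs, 52.1 to 57.6% at start codons, 28.1 to 32.6% in coding regions, 2.18 to 2.37% at stop codons and 3.00 to 3.69% in 3′ UTRs. In every area the eIF3a-bound value lay outside this range. At start codons the eIF3a-bound share exceeded that of the unselected library of its own strain by 3.91 points, while the unselected libraries themselves spanned a wider range. The other factor-bound libraries, 1 each and from other strains, are given beside these for orientation. 5′ UTRs held 18.6% with eIF3c and 25.1% with eIF2β, coding regions 16.1% and 11.9%, stop codons 0.789% and 0.735%, and 3′ UTRs 1.97% and 1.08%. Differences between the factors were not tested.

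Within single genes the same order held. For each gene, the footprints of an area were divided by those at its own start codon, so that neither library size nor mRNA level enters, and the eIF3a-bound ratio was set over the unselected ratio. In 5′ UTRs the median log2 change of this ratio was 0.73 over 1795 genes. There 653 genes lay past 2-fold higher (36.4%) and 29 past 2-fold lower (1.62%). In coding regions the median was −0.97 over 2752 genes, with 56 genes past 2-fold higher (2.03%) and 1328 lower (48.3%). At stop codons it was −2.66 over 520 genes, a 6.31-fold lower ratio, with 2 genes past 2-fold higher (0.385%) and 472 lower (90.8%). In 3′ UTRs it was −1.42 over 747 genes, with 11 genes higher (1.47%) and 514 lower (68.8%). Between unselected libraries 1-3 and 1-2 the medians of the same 4 ratios were −0.07, 0.05, −0.16 and −0.23.

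**Figure D2:**
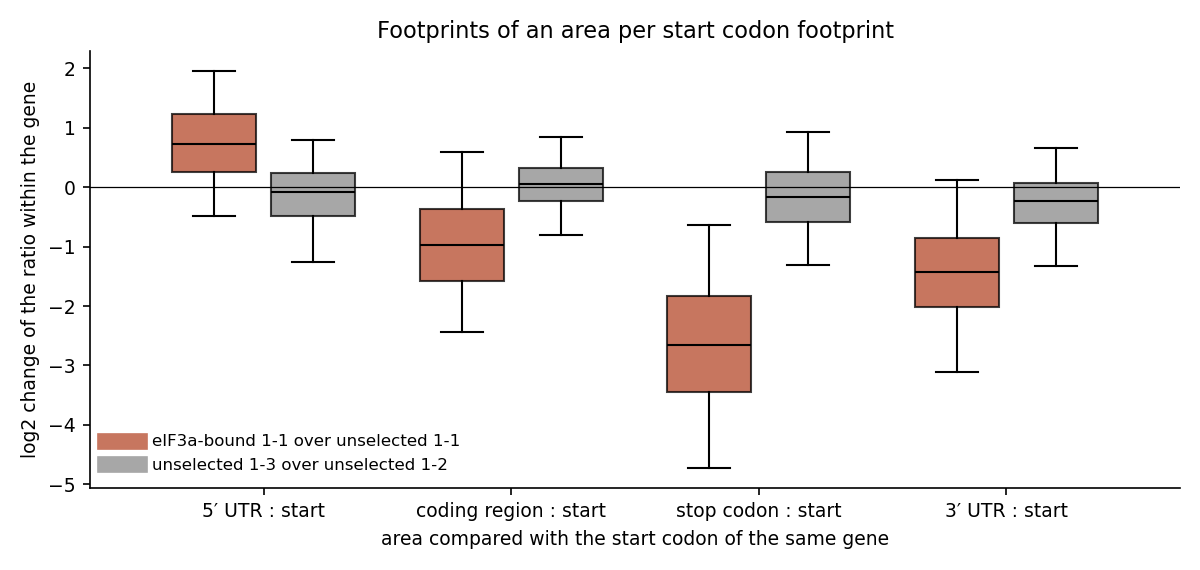
Log2 change of the within-gene ratio of each area to the start codon (y axis) for the 4 other areas (x axis). Boxes span the interquartile range over genes with the median as a line, and whiskers reach from the 5th to the 95th percentile. Red is eIF3a-bound over unselected 1-1, with medians of 0.73, −0.97, −2.66 and −1.42, and grey is unselected 1-3 over unselected 1-2, with all medians between −0.23 and 0.05.

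Stop codon footprints were fewer also in proportion to the coding region of the same gene. The log2 change of the stop to coding-region ratio had a median of −1.88 over 538 genes, 3.69-fold lower with eIF3a, and 505 of these genes lay below 0. The median of 3′ UTR to coding region was −0.67 over 765 genes. 3′ UTR footprints per stop codon footprint moved the other way, with a median of 1.25 over 441 genes, 387 of them above 0. Between unselected libraries 1-3 and 1-2 these 3 medians were −0.23, −0.34 and −0.19. For the stop to coding-region ratio the eIF3c-bound library over its own unselected library had a median of −1.001, and the eIF2β-bound library −0.39. These 3 ratios were added after the tables had been seen, and the difference between factors was not tested.

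FUR1 (uracil phosphoribosyltransferase), PIR1 (a cell wall protein), ACS2 (acetyl-coenzyme A synthetase) and ERG10 (an enzyme of the sterol pathway) were among the genes with the largest drops of the stop to start ratio, and with 0 or 1 footprint left their order is not resolved. FUR1 had 0 stop codon footprints in the eIF3a-bound library and 33 in the unselected library, beside 1680 start codon footprints in the eIF3a-bound library. With the floor of 3 counts per library in place of 0, its stop to start ratio was at least 20.5-fold lower with eIF3a. PIR1 had 0 against 26 and was at least 17.8-fold lower, and ACS2 had 0 against 34 and was at least 16.5-fold lower. ERG10 had 1 footprint against 49, beside 2758 against 1074 at its start codon. SFH1, a subunit of the RSC chromatin remodeller, and YOR302W were the 2 genes past 2-fold higher. SFH1 had 20 stop codon footprints in the eIF3a-bound library against 11 in the unselected library, and 37 against 83 at its start codon (1.99). YOR302W, the attenuator reading frame upstream of CPA1, had 115 against 25 (1.39). LHP1, the yeast La protein, followed among genes with at least 200 counts, with 36 against 22 (0.77).

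The level of a gene in an area is its count there, which depends on the amount of its mRNA as well as on the subunits on each mRNA. Its log2 change is centred on the median gene of that area among genes with at least 50 counts over the 2 libraries, with 0.5 added to each count. Without centring, on the scale of library totals, the median gene changed by 1.09 in 5′ UTRs, 0.20 at start codons, −0.80 in coding regions, −2.54 at stop codons and −1.22 in 3′ UTRs, and a centred value is relative to these shifts. 

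5′ UTR footprints were higher in nearly every gene and by similar amounts. Of 1391 genes measured, 1369 had a higher share of the eIF3a-bound library than of the unselected library. Around the median shift, 16 genes lay past 2-fold higher (1.15%) and 30 past 2-fold lower (2.16%). Among the 710 genes with at least 200 counts, 1 lay past 2-fold (0.141%), with an SD of 0.31 on the log2 scale, while 14 of 340 genes (4.12%, SD 0.47) did so between unselected libraries 1-3 and 1-2. The 5′ UTR was thus the area in which genes differed least from each other.

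The 1 gene past 2-fold was STE2, the receptor for α-factor, with 102 5′ UTR footprints in the eIF3a-bound library against 145 in the unselected library, a centred log2 change of −1.87 (95% counting interval −2.25 to −1.50). Next to it stood AIM7 (122 against 91, −0.95), TMA10 (434 against 307, −0.87), the cytochrome c gene CYC1 (585 against 403, −0.83) and the a-factor gene MFA2 (453 against 310, −0.82). Except for STE2, their counts were higher in the eIF3a-bound library, but by less than for the median gene. The highest values were in PET191, an assembly factor of cytochrome c oxidase (210 against 41, 0.98), the Hsp70 gene SSA2 (423 against 89, 0.88), the hexokinase gene HXK2 (369 against 78, 0.87), the ribosomal stalk gene RPP1B (767 against 167, 0.83) and RPL22B (228 against 51, 0.78). In the eIF3c and eIF2β pairs SSA2 had −1.36 and −0.41, and HXK2 −0.56 and −0.67, so their position above the median gene was seen with eIF3a and not in the other pairs. That difference was not tested. Of 17 genes past 2-fold lower here and measured in the eIF3c pair, 17 lay below that pair's median gene, and of 10 past 2-fold higher 5 lay above it.

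GCN4, the transcription factor whose 5′ UTR carries regulatory upstream reading frames, had the most 5′ UTR footprints in the eIF3a-bound library, 22949 against 9267 in the unselected library. Its centred log2 change was −0.06 (−0.09 to −0.02), so it moved as the median gene did. GCN4 start codon footprints were 145 against 84 (0.30). UTH1 (11624 against 4817, −0.10), RPS2 (11248 against 4185, 0.06), RPP2B (8025 against 3271, −0.07) and CCW12 (7687 against 3974, −0.42) followed. Counts are not per length, so they do not rank the density of subunits between genes.

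Per start codon footprint, 5′ UTR footprints differed more between genes than their levels did. Of the lists, eIF2 and eIF2B had 5 of 7 genes past 2-fold higher with a median of 1.53, large-subunit ribosomal proteins 31 of 45 with 1.396 and small-subunit ones 21 of 39 with 1.03, against a median of 0.73 and 36.4% over all genes. In 5′ UTR levels the large-subunit and small-subunit genes stood near the median gene, with medians of 0.04 and −0.08. Their start codon levels were lower, with medians of −0.44 and −0.27. For eIF2 and eIF2B these medians were 0.56 in 5′ UTRs and −0.17 at start codons. For this ratio the median over all genes was 0.11 in the eIF3c pair and 0.82 in the eIF2β pair, and the differences were not tested. TIR3, a cell wall mannoprotein, had 27 5′ UTR footprints against 0, and its ratio was at least 8.21-fold higher with the floor of 3 counts. MRP10, a mitochondrial ribosomal protein, had 23 against 1 (log2 change of the ratio 3.56). RPL1A had 29 against 12 (3.52), beside 762 against 3709 footprints at its start codon. The lowest ratios were in CBC2, a subunit of the nuclear cap-binding complex (65 against 86, −1.79), PIS1, which makes phosphatidylinositol (9 against 23, −1.54), and SRP68, a subunit of the signal recognition particle (175 against 96, −1.17). PIS1 was also low in the eIF3c pair (−3.98) and the eIF2β pair (−3.77).

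Start codon levels spread about as widely as between 2 unselected libraries. Of 2762 genes, 97 lay past 2-fold higher (3.51%) and 205 past 2-fold lower (7.42%), with an SD of 0.66, against 0.68 and 7.94% past 2-fold in either direction for unselected 1-3 over 1-2. Most of the low genes were also low in libraries of the other factors. Of the 163 low genes measured in the eIF3c pair, 160 lay below that pair's median gene and 122 past 2-fold lower, where 10.2% of all genes measured in both pairs did. In the eIF2β pair 163 of 169 lay below and 75 past 2-fold lower, against 5.13%. Across genes the centred changes correlated at Pearson r = 0.73 with the eIF3c pair (2502 genes) and 0.64 with the eIF2β pair (2533 genes). The pairs share no library, but they share the protocol and the sequence and length of each gene, and genes are not independent replicates.

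RPL1A, a large-subunit ribosomal protein, had 762 start codon footprints in the eIF3a-bound library against 3709 in the unselected library, a centred log2 change of −2.77 (−2.88 to −2.66). UTR2, a cell wall cross-linking enzyme, had 83 against 310 (−2.38), and ILS1, the isoleucyl-tRNA synthetase, 153 against 527 (−2.27). RPS28A, a small-subunit ribosomal protein, had 2759 against 8898 (−2.17), and GVP36, a Golgi vesicle protein, 216 against 663 (−2.10). All 5 were also past 2-fold lower in both other pairs, with RPL1A at −2.98 in the eIF3c pair and −1.67 in the eIF2β pair. RPL1A and RPS28A each have a near-identical copy, so their counts are uncertain.

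The highest start codon changes were in EMG1, a methyltransferase of ribosome synthesis (361 against 99, 1.38), END3, which acts in endocytosis (195 against 54, 1.36), YAR1, the chaperone of Rps3 (507 against 141, 1.36), the kinase gene MCK1 (176 against 52, 1.26) and the mitochondrial malate dehydrogenase gene MDH1 (479 against 149, 1.196). In the eIF3c pair EMG1, END3, YAR1 and MDH1 had 1.60, 1.77, 1.11 and 1.13, and MCK1 −0.10. In the eIF2β pair all 5 lay between 0.26 and 0.67. TDH3 had the most start codon footprints, 129046 against 68559 (0.43), followed by ENO2 (57229 against 42057, −0.04), PDC1 (56321 against 37722, 0.09), CCW12 (41257 against 34442, −0.22) and FBA1 (40220 against 35819, −0.32).

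At start codons the ribosomal protein lists had medians below that of all genes, of which 3.51% were past 2-fold higher and 7.42% lower. The gene table held only 47 of the 81 large-subunit names and 42 of the 57 small-subunit names of these lists. Of 47 genes for large-subunit proteins, 1 was past 2-fold higher and 8 lower, with a median of −0.44 and 10 above the median of all genes. Beside RPL1A, the low ones were RPL38 (6102 against 12814, −1.56), RPL8A (−1.53), RPL6B (−1.37), RPL11B (−1.20), RPL5 (−1.17), RPL3 (−1.14) and RPL1B (−1.08), and the high one was RPL32 (9167 against 3017, 1.12). Of 42 small-subunit genes, 0 were past 2-fold higher and 5 lower (RPS28A, RPS30B at −1.99, RPS22A at −1.55, RPS30A at −1.14 and RPS3 at −1.10), with a median of −0.27. RPS12 and RPS15 stood above the median gene (0.64 and 0.45). Mitochondrial ribosomal proteins had 2 of 57 past 2-fold higher (MRPS28 and RSM25) and 7 lower, with a median of −0.22, among them MRPS12 (11 against 62, −2.93).

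In the other lists few genes were past 2-fold at start codons, often near the shares over all genes. The respiratory chain and ATP synthase had 0 of 39 past 2-fold in either direction and a median of 0.15. Glycolysis and fermentation had 0 of 21 higher and 1 lower (PGI1, glucose-6-phosphate isomerase, 2247 against 3548, −1.14), with a median of 0.06. Proteasome subunits had 0 of 32 higher and 1 lower (SEM1, −1.32), chaperones 0 of 31 higher and 2 lower (ZUO1, a ribosome-bound J-protein, −1.99, and CCT8, −1.04), and aminoacyl-tRNA synthetases 0 of 18 higher and 1 lower (ILS1), with a median of −0.25 and 6 above the median of all genes. Amino acid biosynthesis had 3 of 59 higher (HIS7, ARO1 and ARO8, from 1.03 to 1.11) and 2 lower (ILV6 at −1.58, PRO3 at −1.30). Plasma membrane transporters had 3 of 31 higher (YOR1, TPO1 and FCY2) and 2 lower (CAN1, the arginine permease, at −2.07, and PMA1, the proton pump, at −1.75). Cell wall and secretory genes had 0 of 34 higher and 3 lower (UTR2, PHO3 and SEC62). Histones had 1 of 11 higher (CSE4, the centromeric histone H3, 1.15) and 0 lower.

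Among the initiation factors, no subunit of eIF3 or eIF2 was past 2-fold at its start codon. RPG1, which encodes the tagged subunit itself, had 169 start codon footprints in the eIF3a-bound library against 95 in the unselected library (0.34). NIP1 (eIF3c) had 686 against 400 (0.29), TIF34 (eIF3i) 983 against 444 (0.66), TIF35 (eIF3g) 653 against 513 (−0.14) and HCR1 (eIF3j) 353 against 353 (−0.49). PRT1 (eIF3b) had 0 start codon footprints in both libraries and 678 against 851 in its coding region. The eIF2 genes SUI2, SUI3 and GCD11 had 0.24, −0.04 and −0.02. In coding regions 11% of all genes were past 2-fold higher and 11.8% lower. There eIF3 subunits had 0 of 6 higher and 1 lower, with a median of −0.07. The eIF2 and eIF2B genes had 0 of 8 higher and 2 lower, with a median of −0.21. The low genes were NIP1 (133 against 407, −1.09) and, for subunits of the exchange factor eIF2B, GCD1 (−1.32) and GCD2 (−1.26). Above the median gene stood TIF34 at 0.69, TIF35 at 0.53 and SUI2 at 0.70. Start selection and subunit joining had 0 of 4 higher and 1 lower, with a median of 0.05. The cap-binding, helicase and poly(A)-binding group had 0 of 10 higher and 2 lower, with a median of 0.14. Among the low genes, FUN12, for the joining factor eIF5B, had 149 against 698 (−1.70), and TIF4631, for eIF4G, 196 against 595 (−1.08). 4 genes of start selection and subunit joining and 10 of the cap-binding, helicase and poly(A)-binding group were measured at start codons, and of these EAP1, an inhibitor that binds eIF4E, was past 2-fold lower (49 against 111, −1.66).

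Coding regions differed between genes by far more than between 2 unselected libraries. Of 3461 genes, 380 lay past 2-fold higher (11%) and 408 past 2-fold lower (11.8%) around the median, with an SD of 0.83, against 0.50 and 4.06% past 2-fold for unselected 1-3 over 1-2. With at least 200 counts the shares were 23.5% of 991 genes and 3.79% of 817. The centred changes correlated across genes with the eIF3c pair (r = 0.72, 3080 genes) and the eIF2β pair (r = 0.78, 2944 genes). Of 350 low genes measured in the eIF3c pair, 317 lay below its median gene, and of 343 high genes 324 lay above it.

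Gene length went with this spread. In coding regions per start codon footprint, genes in the shortest tertile (78 to 837 nt) had a median log2 change of −0.38, those in the middle tertile (837 to 1491 nt) −0.97 and those in the longest (1491 to 14733 nt) −1.58. The ratio lay past 2-fold lower in 19.8%, 48.3% and 76.6% of these genes. Between unselected libraries 1-3 and 1-2 the same tertiles had medians of 0.08, 0.06 and 0.02. Tertiles by start codon footprints differed less, with −1.09, −0.99 and −0.86 from few to many. Lengths are gene spans in the reference and include introns. The longest tertile held 23 reading frames with hyphenated names and spans of 4816 to 5383 nt, with a median of −2.26, and without them its median was −1.56. 5′ UTR and stop codon ratios moved little with length, from 0.75 to 0.70 and from −2.56 to −2.82 between the shortest and the longest tertile.

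**Figure D3:**
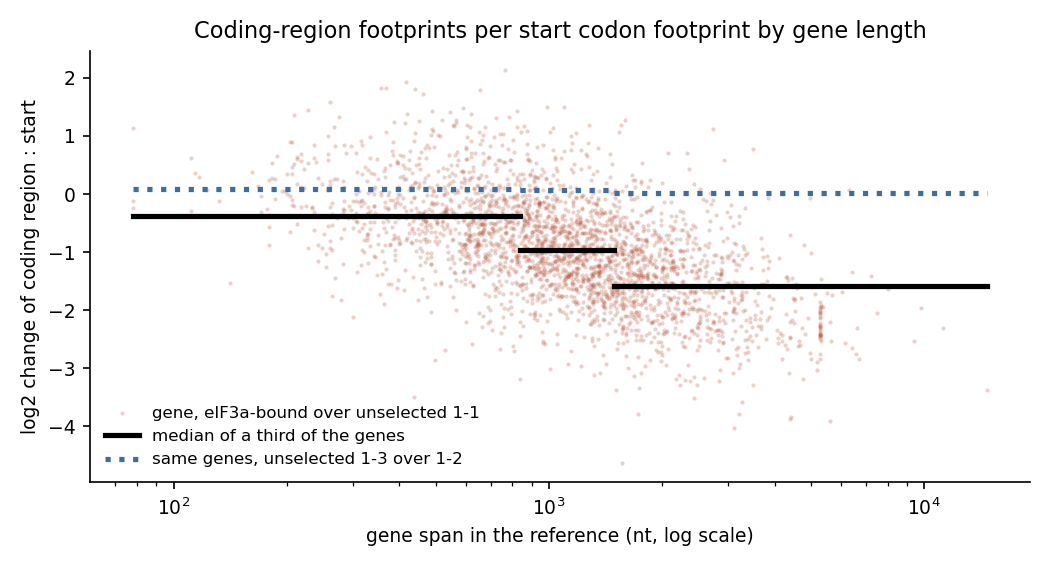
Log2 change of the coding region to start codon ratio, eIF3a-bound over unselected 1-1 (y axis), against gene span in nt on a log scale (x axis), with 1 point per gene. Black lines are the medians of the shortest, middle and longest tertile at −0.38, −0.97 and −1.58, and dotted blue lines are those of the same genes between unselected libraries 1-3 and 1-2, at 0.08, 0.06 and 0.02.

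Genes of very different length stood at the low end. REA1, the giant ATPase of 60S maturation and the longest gene of the table's measured set at 14733 nt, had 69 coding-region footprints in the eIF3a-bound library against 389 in the unselected library (centred log2 change −1.96). UTP10, a 5310 nt gene for a processome subunit, had 44 against 249 (−1.96). Per start codon footprint, NUP159, a nucleoporin, had −3.88, the sodium pump gene ENA1 −3.58, and SWI3, a chromatin remodelling subunit, −3.30. ENA1 ends 609 nt before ENA2, and handling of multiple mapping is not known. It had 0 start codon footprints in the eIF3c-bound library and in unselected 1-2, so it was not measured in that pair. In the eIF2β pair it had −2.91. The lowest was FAR8, of 1572 nt, with 23 coding-region footprints against 134 and 45 start codon footprints against 10 (−4.63). Among genes with at least 200 counts the 3 lowest levels relative to the unselected library were in YDR278C (458 against 8650, −3.72), YPR108W-A (73 against 895, −3.08) and YOL013W-A (32 against 368, −2.98). The reference table lists none of these, so their spans were not available.

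The highest coding-region changes were in YOR302W (164 against 43, 2.44), MIN9 (2135 against 656, 2.22), APT2 (276 against 88, 2.17), DMO1 (2229 against 714, 2.16) and HSK3, a kinetochore subunit (178 against 59, 2.11). Their spans run from 78 to 546 nt. In the eIF3c pair they had values between 1.75 and 2.44, and in the eIF2β pair between 1.89 and 3.10. YOR302W (chromosome XV, 882765 to 882842) ends 56 nt before CPA1, MIN9 (chromosome XI, 393146 to 393373) ends 5 nt before URA6, and DMO1 (chromosome X, 647126 to 647476) ends 130 nt before ATP2, each on the same strand in build R64. APT2 and HSK3 end 10547 and 8321 nt before the next start. The median coding-region level was similar on either side of 200 nt. The 103 genes within 200 nt of the next start had a median of 0.05, with 22 past 2-fold higher and 15 lower. The 3348 others had a median of −0.0001, with 357 higher and 384 lower. Of the genes past 2-fold higher 5.80% lay within 200 nt of the next start, and of the lower genes 3.76%, against 2.98% of all genes measured. The difference was not tested. Of the 5 genes with most coding-region counts, TDH2 had the highest change, with 11093 coding-region footprints against 6893 (1.21), and TDH3 had 12654 against 12995 (0.48).

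In coding regions, lists of short genes mostly stood above lists of long genes. Per start codon footprint, the large-subunit ribosomal proteins (median span 666 nt) had a median of −0.28 with 4 of 47 past 2-fold lower, and the small-subunit ones (723.5 nt) −0.33 with 6 of 42. Mitochondrial ribosomal proteins had −0.36 with 14 of 57 lower, histones −0.39 with 1 of 11, and the respiratory chain −0.45 with 9 of 39. At the other end, plasma membrane transporters (1773 nt) had −1.63 with 24 of 31 lower, elongation factors −1.44 with 6 of 8, chaperones −1.39 with 20 of 31, and cell wall and secretory genes −1.25 with 20 of 34, against 48.3% lower over all genes. mRNAs with upstream reading frames, with a median span of only 1090.5 nt, had −1.61 with 6 of 10 lower. After subtraction of the median of each gene's own length tertile, transporters stood at −0.05, chaperones at 0.04, the respiratory chain at 0.02 and histones at −0.005. The 10 mRNAs with upstream reading frames stood at −0.17, so most of their distance from the median of all genes was gone. Elongation factors remained at −0.55, start selection and subunit joining factors (4 genes) at −0.49, proteasome subunits at −0.41 and cell wall and secretory genes at −0.39. Large-subunit ribosomal proteins stood at 0.23, mitochondrial ribosomal proteins at 0.26, eIF2 and eIF2B (8 genes) at 0.32 and termination, recycling and rescue factors (7 genes) at 0.63. In coding-region levels, not divided by the start codon, the same subtraction gave the last 4 lists −0.20, 0.08, −0.30 and 0.37. The subtraction was added after the data had been seen.

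In coding-region levels, where 11% of all genes were past 2-fold higher and 11.8% lower, 11 of 38 respiratory chain and ATP synthase genes were past 2-fold higher, with a median of 0.61, led by COX9 (220 against 78, 2.01), and 1 was lower, the NADH dehydrogenase gene NDE1 (61 against 177, −1.01). Less the median of each gene's own length tertile, the median of this list was 0.14. Of 31 transporters 8 were past 2-fold lower and 0 higher, with a median of −0.70, or −0.37 less that of the length tertile. PMA1 stood at 614 against 3064 (−1.796), the drug pump gene SNQ2 at −1.76 and the hexose carrier gene HXT6 at −1.65. YEF3, the fungal elongation factor 3, had 1032 against 5124 (−1.79). In the list of mRNAs with upstream reading frames, LEU4 was past 2-fold lower (39 against 209, −1.88) and the polymerase III subunit gene RPC11 higher (57 against 33, 1.30).

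Stop codon levels spread most of all, with an SD of 1.30 around the median gene against 0.61 between unselected libraries 1-3 and 1-2. Of 249 genes, 45 lay past 2-fold higher (18.1%) and 38 past 2-fold lower (15.3%), against 8.02% past 2-fold in the unselected pair. The lowest with at least 200 counts were genes of metabolism and translation and the proton pump. PGI1 had 25 against 405 (−1.73), RPS1A 24 against 372 (−1.67), the pyruvate kinase gene CDC19 43 against 515 (−1.31), TEF1, which encodes eEF1A, 79 against 932 (−1.30), and PMA1 20 against 222 (−1.18). 5 of 6 elongation factor genes measured were past 2-fold lower, with TEF2 at 94 against 924 and EFT2, for eEF2, at 12 against 168. TEF1 and TEF2, and EFT1 and EFT2, are near-identical copies. Small-subunit and large-subunit ribosomal proteins had 5 of 42 and 4 of 43 past 2-fold higher, and RPS1A, RPS6A and RPL9B past 2-fold lower. SUI3, for eIF2β, had 55 against 34 (2.94). Across genes the changes at stop codons correlated at r = 0.88 with the eIF3c pair (206 genes) and 0.85 with the eIF2β pair (208 genes).

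The highest stop codon values were in small reading frames, several of which end close to the start of another gene. YHR050W-A (chromosome VIII, 209475 to 209645), which ends 59 nt before COX6, a cytochrome c oxidase subunit, had 609 stop codon footprints in the eIF3a-bound library against 175 in the unselected library (centred log2 change 4.05, interval 3.81 to 4.31). DMO1 had 1859 against 700 (3.66), MIN9 328 against 133 (3.56), YER138W-A 170 against 76 (3.41) and YMR001C-A 147 against 66 (3.41). Of the 10 measured genes whose end lies within 200 nt of the next start on the strand, 8 were past 2-fold higher and 2 lower, with a median of 3.61. The 239 genes with a more distant next start had 37 higher, 36 lower and a median of −0.01. The 8 ranged from 3.39 in FYV12 to 4.68 in YKR073C, and both of these had 0 start codon footprints in either library. The 2 low genes were HYP2, for the elongation factor eIF5A (58 against 594, −1.09), and RPA14, a polymerase I subunit (3 against 60, −1.86). Genes enter with at least 50 counts over the 2 libraries, so a high count in 1 of them can be enough. YOR302W, which ends near CPA1, entered only through its eIF3a-bound counts. These numbers therefore do not give the share among all genes near a next start. Between unselected libraries 1-3 and 1-2 the 10 genes had a median of 0.89. The stop to start ratio could be measured in 9 genes within 200 nt, not all of them the same genes, and there its median was −2.22, with 1 past 2-fold higher and 7 lower, against −2.67 in 510 others.

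**Figure D4:**
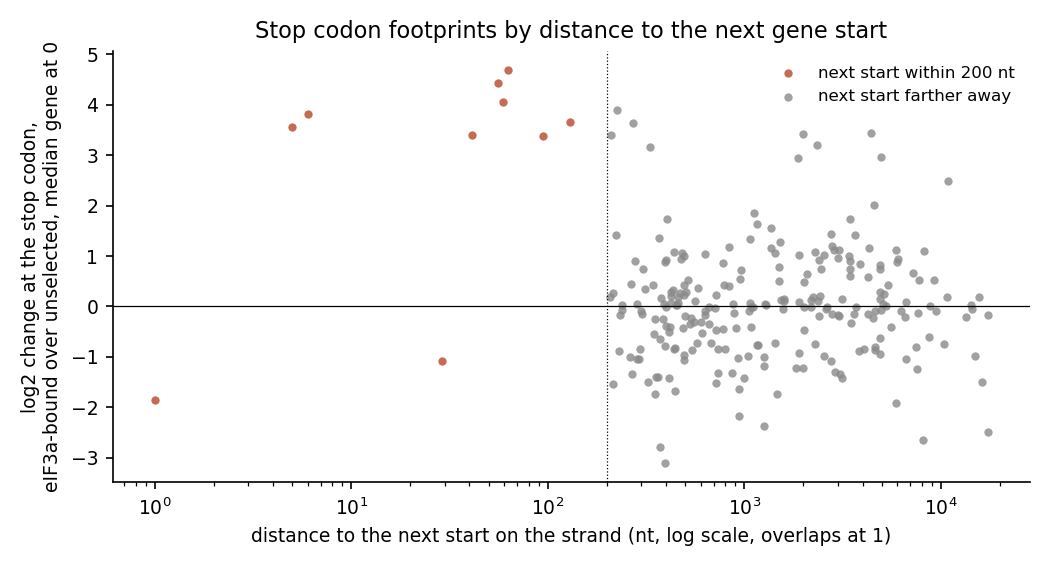
Centred log2 change at the stop codon, eIF3a-bound over unselected 1-1 (y axis, 249 genes measured), against the distance from the gene's end to the next gene start on the same strand (x axis, nt, log scale, an overlap drawn at 1). Red points are the 10 genes within 200 nt, 8 of which lie past 2-fold higher, and grey points are the others.

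3′ UTRs showed the same arrangement. Of 375 genes, 22 lay past 2-fold higher (5.87%) and 17 past 2-fold lower (4.53%). Of 13 genes within 200 nt of the next start, 10 were past 2-fold higher and 0 lower, with a median of 2.22. Of 362 others 12 were higher and 17 lower. The same count minimum applied, so these numbers do not give the share among all near genes either. Among genes with at least 200 counts, the highest was FYV12 (chromosome XV, 678872 to 679261), 95 nt before SER1, with 194 against 63 (2.55). YHR050W-A had 397 against 140 (2.44) and DMO1 1234 against 746 (1.66). Beyond 200 nt, PLS1, 226 nt before RAS2, had 154 against 75 (1.97), and RSC6, 251 nt before THR4, 138 against 76 (1.795). The lowest were GLY1, for threonine aldolase (110 against 762, −1.85), ILV5 (75 against 288, −0.995), RPS26B (63 against 242, −0.99), RPL8A (107 against 398, −0.95) and HSP150 (135 against 498, −0.94). Between unselected libraries 1-3 and 1-2 the 13 genes had a median of 0.42. Per start codon footprint, 9 near genes had a median of −0.76, with 1 past 2-fold higher and 3 lower, against −1.43 in 737 others. The sources used here do not say how footprints were divided between a 3′ UTR and the 5′ UTR of the next gene, and the part of the next gene's 5′ UTR in these values was not tested. Amino acid biosynthesis genes had 4 of 10 past 2-fold lower in 3′ UTRs (GLY1, ASN1, LYS20 and GDH1) and 0 higher.

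At start codons, a larger share of 5′ ends lay far upstream in the eIF3a-bound than in the unselected library, and a larger share of 3′ ends far downstream. The 5′ and 3′ ends are given separately, so they do not show whether the same footprints reach farther on both sides. The authors' tables give, for footprints associated with the AUG, the position of 5′ and 3′ ends as means over genes, with 95% limits. 5′ ends peaked at −13 in both libraries, but this position held 11.9% of ends in the eIF3a-bound library (limits 10.5 to 13.4%) and 24.5% in the unselected library (23.5 to 25.6%). Positions −14 to −12 together held 28.2% against 55.8%. Ends from −50 to −19, farther upstream, held 34.5% against 14.3%, a 2.41-fold higher share. The eIF3a-bound limits lay above the unselected limits without overlap at all 29 positions from −44 to −16, and below them at the 4 positions from −14 to −11. Nearer to the AUG they lay above them at −8, −5 and −4, with 2.33% against 1.31% at −5. The median 5′ end was at −15 with eIF3a and at −13 without selection.

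3′ ends differed more. In the eIF3a-bound library they peaked at +24, with 10.8% of ends (8.94 to 13.1%) against 3.63% in the unselected library (2.99 to 4.49%). In the unselected library they peaked at +15, with 3.72% of ends in the eIF3a-bound library (3.46 to 3.96%) against 16.5% in the unselected library (15.5 to 17.4%). Positions +15 and +16 together held 7.40% against 29.6%, a 4.004-fold lower share, and positions +22 to +26 held 37.1% against 14.1%, a 2.64-fold higher share. A smaller peak at +18 was present in the eIF3a-bound library, with 7.11% against 9.14%. The limits did not overlap at the 30 positions from +21 to +50, where eIF3a-bound ends were higher, nor from +14 to +18, where they were lower. Nearer to the AUG, eIF3a-bound ends were also higher from +9 to +12, and lower at +6 and +7. The median 3′ end was at +21 with eIF3a and at +17 without selection.

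**Figure D5:**
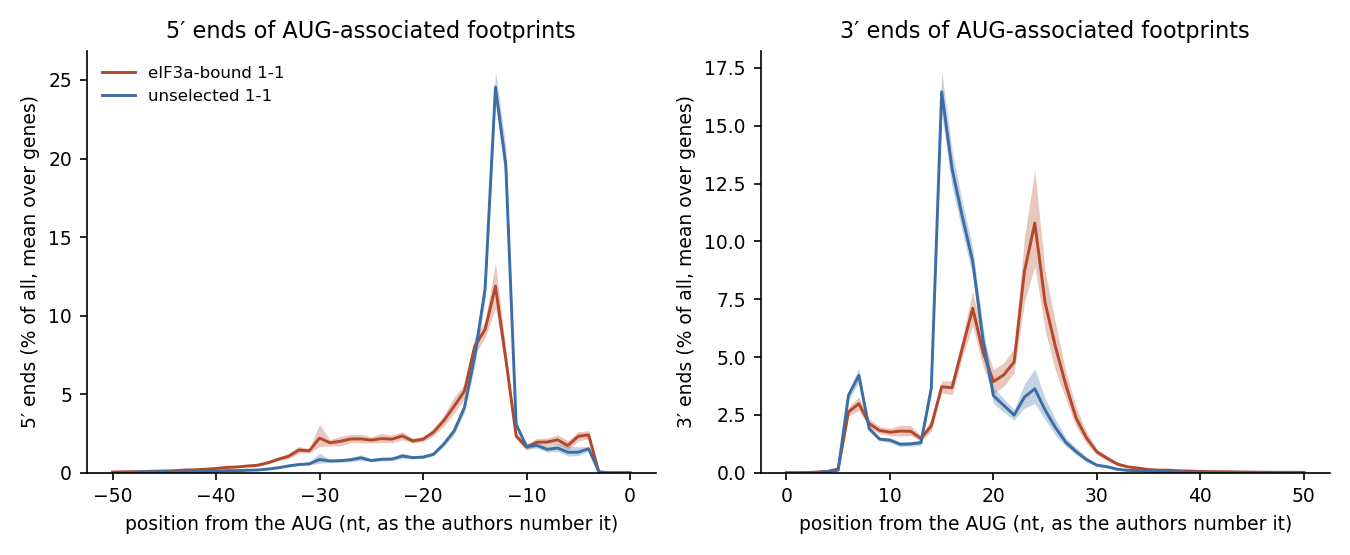
Share of 5′ ends (left) and 3′ ends (right) of AUG-associated footprints (y axes, %, mean over genes) by position from the AUG (x axes, nt, in the authors' numbering). Lines are the eIF3a-bound and the unselected library 1-1 and bands are the authors' 95% limits. The 5′ ends peak at −13 in both libraries, and the 3′ ends peak at +24 with eIF3a and at +15 without selection.

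The other unselected libraries resembled the unselected library of this strain at the main peaks and less in other windows. From −50 to −19 unselected libraries 1-2 and 1-3 held 10.1% and 17.8% of 5′ ends. From +6 to +13 they held 24.9% and 18.8% of 3′ ends, against 16.1% in unselected 1-1 and 16.4% in the eIF3a-bound library. At +7 unselected 1-2 held 6.86%, against 4.21% in unselected 1-1 and 2.99% with eIF3a. Positions −14 to −12 held 57.3% and 53.4% of 5′ ends in unselected libraries 1-2 and 1-3, and positions +22 to +26 held 11.1% and 15.8% of 3′ ends, with the 3′ peak at +15 in both. The eIF3c-bound library had its 3′ peak at +24 with 11.1% of ends, and 39.1% of its 3′ ends fell from +22 to +26. The eIF2β-bound library peaked at +15 with 8.04%, and held 26.9% from +22 to +26. Upstream 5′ ends from −50 to −19 made up 49.1% with eIF3c and 37.9% with eIF2β. The windows were set after the profiles had been seen, and the differences between factors were not tested.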

How the data were processed

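RNase I footprints of 40S subunits were sequenced by the authors. The submitters' processing notes list TopHat2 2.1.0, Bowtie2 2.2.6, Bowtie 1.2.2 and CASAVA 1.8 beside build R64, without saying what each did. The sources used here do not state strand use, multiple mapping or handling of duplicates, so values of paralogs and overlapping genes are uncertain. The gene table holds the deposited counts per gene, not normalized, in 5 areas that its second header line names, for 6 libraries, and 0 count columns had no sample. Footprints were assigned to areas by the authors, with borders not given in the sources used here. End tables hold the authors' fractions per position, means over genes with 95% limits per the file headers, and were printed as percent. The tables name eIF2α where the labels name eIF2β for number 1-3, and that column was taken as the eIF2β-bound library.

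Samples were grouped by their titles. Python 3.11.15 with pandas 2.3.3, NumPy 2.4.6, SciPy 1.17.1 and matplotlib 3.10.9 was used, and edgeR 4.0.16 for an alternative scaling. Area levels needed 50 counts over the 2 libraries, and ratios 50 at the start codon and 20 in the other area. A pseudocount of 0.5 was added. Shares and levels carry exact (Clopper-Pearson) 95% intervals for counting error. The ratios were checked on simulated data. Windows of end positions, ratios to the coding region or stop codon, the distance to the next start, the length adjustment of lists and the mating-type genes were added after the data had been seen. Of 5818 IDs, 5776 matched the RefSeq table of build R64 and 42 did not, and positions are from that table. Strand was read from the systematic names. No span of the 97 named genes placed there overlaps another gene of the table. The 19 gene lists (520 of 576 names found) and all rules were chosen with earlier results of these data known. Named genes are the 5 highest and 5 lowest of each quantity with at least 200 counts, the 5 with most counts per area, the eIF3 and eIF2 subunits and GCN4, and list members past 2-fold or with most start codon footprints. Other genes were named after their values were seen. Planned sequence features were not analysed here.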

Additional observations from a re-analysis of the deposited data

How the results depend on the processing

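No paired analysis was possible because each group held 1 library. TMM scaling (edgeR) kept every area count within 1.5 times. A pseudocount of 2 did so too, except for 9 genes higher in 5′ UTRs. Scaling to library totals takes the shift of the median gene into the counts, which gave 817 higher and 2 lower in 5′ UTRs, 188 higher at start codons, 45 and 1428 in coding regions, 8 and 225 at stop codons and 9 and 259 in 3′ UTRs. With a lower count minimum both the number of genes measured and, except for lower genes in coding regions, the share past 2-fold grew: in 5′ UTRs the higher genes were 1.15% of 1391 with 50 counts, 4.24% of 2123 with 20 and 13.9% of 4411 with 1. With at least 20 counts the higher and lower genes numbered 90 and 126 in 5′ UTRs, 221 and 383 at start codons, 576 higher in coding regions, 108 and 97 at stop codons and 67 and 92 in 3′ UTRs. With 200 they numbered 0 and 1, 16 and 71, 104 and 129, 10 and 7, and 5 and 5, in the same order of areas. With 1 count they numbered 614 and 842, 497 and 738, 765 and 786, 838 and 1051, and 1001 and 958. Against the 3 unselected libraries summed, which admits more genes, lower genes numbered 73 in 5′ UTRs and 308 at start codons, and higher and lower genes 72 and 89 at stop codons and 51 and 62 in 3′ UTRs.

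For ratios to the start codon, minima of 200 and 100 gave 242 higher and 2 lower in 5′ UTRs, 11 and 495 in coding regions, 0 and 118 at stop codons and 1 and 131 in 3′ UTRs. Minima of 20 and 10 gave 101 lower in 5′ UTRs, 119 higher in coding regions, 9 and 909 at stop codons and 31 and 912 in 3′ UTRs. The summed unselected libraries gave 49 lower in 5′ UTRs, 926 lower at stop codons and 947 lower in 3′ UTRs. The share of measured genes past 2-fold lower at stop codons stayed between 88.0 and 92.9% in all of these. Area shares kept their direction. Without the 10 genes with most counts the 5′ UTR difference was 11.4 points, against 9.91 with them. As medians over 4517 genes the differences were 5.85 points in 5′ UTRs, 11.4 at start codons, −16.5 in coding regions and −2.04 at stop codons.

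Depth limits stop codons and 3′ UTRs most, where 249 and 375 genes had 50 counts, against 3461 in coding regions. With 1 library a group, differences between libraries and effects of the selection cannot be told apart.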

Other observations

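STE2, whose 5′ UTR value stood lowest, is in textbooks a gene of a-type cells, so genes of either mating type were read in all 6 libraries of 40S, after STE2 had been seen. STE2 had 688 footprints over all areas in the eIF3a-bound library and 832 in the unselected library 1-1, but 114 and 24 in the eIF3c-bound and eIF2β-bound libraries and 12 and 16 in unselected libraries 1-2 and 1-3. The a-factor genes MFA1 and MFA2 had 2145 and 4602 in the eIF3a-bound library and 2316 and 4231 in unselected 1-1, against 216 and 477 in the eIF3c-bound library, 52 and 96 in the eIF2β-bound library, and at most 31 and 68 in unselected 1-2 and 1-3. The α-factor gene MF(ALPHA)1 ran the other way, with 216 in the eIF3a-bound library and 247 in unselected 1-1, against 5487 and 6304 in unselected 1-2 and 1-3 and 16194 and 17172 in the eIF3c-bound and eIF2β-bound libraries. The strain of number 1-1 thus differed from the strains of 1-2 and 1-3 in these genes. The eIF3c-bound library held more footprints of the a-type genes than unselected 1-2, as the STE2, MFA1 and MFA2 values show, beside library totals of 4440991 and 1595793. Both libraries of the eIF3a comparison come from the same strain, while the pair of unselected libraries 1-3 and 1-2 comes from the other strains.

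Within the pair, the a-type genes were also read by area, where the median coding region to start change over all genes was −0.97. MFA2 had 3037 start codon footprints in the eIF3a-bound library and 2914 in unselected 1-1, and in the coding region 742 and 584. MFA1 had 442 coding-region footprints in the eIF3a-bound library and 313 in unselected 1-1, beside 1551 and 1698 at the start codon. STE2 had 171 and 256, beside 409 and 404. STE6, the a-factor exporter, had 51 coding-region footprints in the eIF3a-bound library and 130 in unselected 1-1, beside 63 and 72 at the start codon. Whether these genes depart from the shift of other genes was not tested.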
